A study of Capra hircus with 2 samples.

Results

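The miR-26 family of the dairy goat mammary gland was followed through its mature forms, miR-26a and miR-26b, in early lactation and early involution. Tags of miR-26 were those of 18 nt or more that started at the first base of a mature sequence, or lacked 1 or 2 bases there. No mismatch was allowed along the overlap, and a tag could run at most 3 nt past the mature 3′ end. In the lactation library 65 of 305711 distinct tags met this rule, and in the involution library 99 of 259250. Small RNA of mammary gland tissue was sequenced once per stage, each library being made from 1 pool that took equal amounts of RNA from each of 5 goats, size-selected for small RNA. The lactation pool came from goats on day 10 after parturition, and the involution pool from goats on day 5 after forced weaning in late lactation, day 218 after parturition. The lactation library held 18031615 clean tags and the involution library 7385833, so the first was 2.44 times deeper. No genetic modification or drug is named for either stage, and the labels give neither the breed nor the age of the goats. Stage and time since parturition cannot be told apart, and neither can the stage and the pool of animals. There was 1 library per stage, so the spread between goats is unknown and the stages could not be tested against each other. Every interval given is a 95% interval and covers counting error only. Because whole tissue was used, fewer cells of a type and less RNA per cell cannot be told apart.

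MicroRNAs are short RNAs that guide Argonaute proteins to messenger RNAs, mainly through the seed, bases 2 to 8 from the 5′ end. The genes of the miR-26 family lie in introns of the CTDSP genes, which encode small phosphatases that act on the C-terminal domain of RNA polymerase II and restrain the cell cycle, and the family is known to restrain growth with its hosts. Its known targets include the Polycomb methyltransferase EZH2 and, in goat mammary epithelial cells, INSIG1, a regulator of lipid synthesis. Uridylation of the 3′ end of miR-26a by the enzyme TUT4 has been described as a way to blunt its activity. In the goat RefSeq gene table of assembly ARS1.2, which lists 264 miRNA genes, MIR26A lies within CTDSPL and MIR26B within CTDSP1. This table lists 2 MIR26 genes in all.

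The members are set out below as read from the deposited tags, with T in place of U, to show that the seed, in capitals, is shared.
miR-26a-5p: tTCAAGTAatccaggataggct
miR-26b-5p: tTCAAGTAattcaggataggtt
The mature forms differ at 2 of 22 positions, counted from 1 at the 5′ end and written with the base of miR-26a first: C11T, in the centre, and C21T, next to the 3′ end. The same sequences with the differing bases in capitals are given next, since position 11 is what assigns each tag to a paralogue.
miR-26a-5p: ttcaagtaatCcaggataggCt
miR-26b-5p: ttcaagtaatTcaggataggTt
Every tag of 18 nt or more that meets the rule covers position 11, so no tag could belong to both.

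Both members were higher in the involution library. miR-26a-5p had 61474 tags in lactation and 76723 in involution, or, scaled to 1000000 clean tags of the library (written TPM, tags per that number), 3409 TPM (3382 to 3436) and 10388 TPM (10314 to 10462). Its level in involution was thus 3.05 times that in lactation (3.01 to 3.08). miR-26b-5p had 10282 and 18686 tags, or 570.2 TPM (559 to 581) and 2530 TPM (2494 to 2567). Its level was 4.44 times higher in involution (4.33 to 4.55). Together the pair went from 3979 TPM to 12918 TPM, a ratio of 3.25 (3.21 to 3.28). Neither member's intervals overlapped between the libraries, but with this many tags such intervals are narrow. Even the seed family of miR-143, at 1.036 times in involution, had an interval above 1 (1.034 to 1.037).

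Rises of at least 2-fold were common in these data. A group of tags was counted as higher when its involution level was at least 2 times its lactation level and its whole interval lay above 1, and as lower in the mirror case. Of 2370 groups of tags that share their first 18 bases and reach 10 TPM in a library, 31.0% were higher and 11.4% were lower by this measure. The median log2 ratio of the 2280 groups with tags in both libraries was 0.23. Counted in the same way, by first 18 bases, both members were among the higher groups, with a log2 ratio of 1.65 for miR-26a-5p and 2.14 for miR-26b-5p. Among the 274 groups with at least 1000 tags in both libraries they ranked 34 and 18 from the highest, and the median there was 0.35. Such groups include fragments of other RNAs and tags that carry a sequencing error of an abundant miRNA.

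A narrower comparison used 45 miRNA families recognised by the seed at bases 2 to 8. Here 44.4% of the families were higher in involution and 2.22% were lower, and the miR-26 family was among the 20 that were higher. No minimum level was asked of the families, and miR-133, also among the 20, was under 10 TPM in both libraries. By its seed alone the family had 4254 TPM in lactation and 14183 TPM in involution. It ranked 13 of 45 by level in lactation, between miR-10 (4536 TPM) and the family of miR-15 and miR-16 (3891 TPM). In involution it ranked 10, between the family of miR-200b and miR-200c at 15006 TPM and that of miR-15 and miR-16 at 6489 TPM. The tags that the rule assigned to a member equalled 93.5% of the number with this seed in lactation and 91.1% in involution. They include the few that lack 5′ bases, which do not carry the seed at bases 2 to 8.

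**Figure D1:**
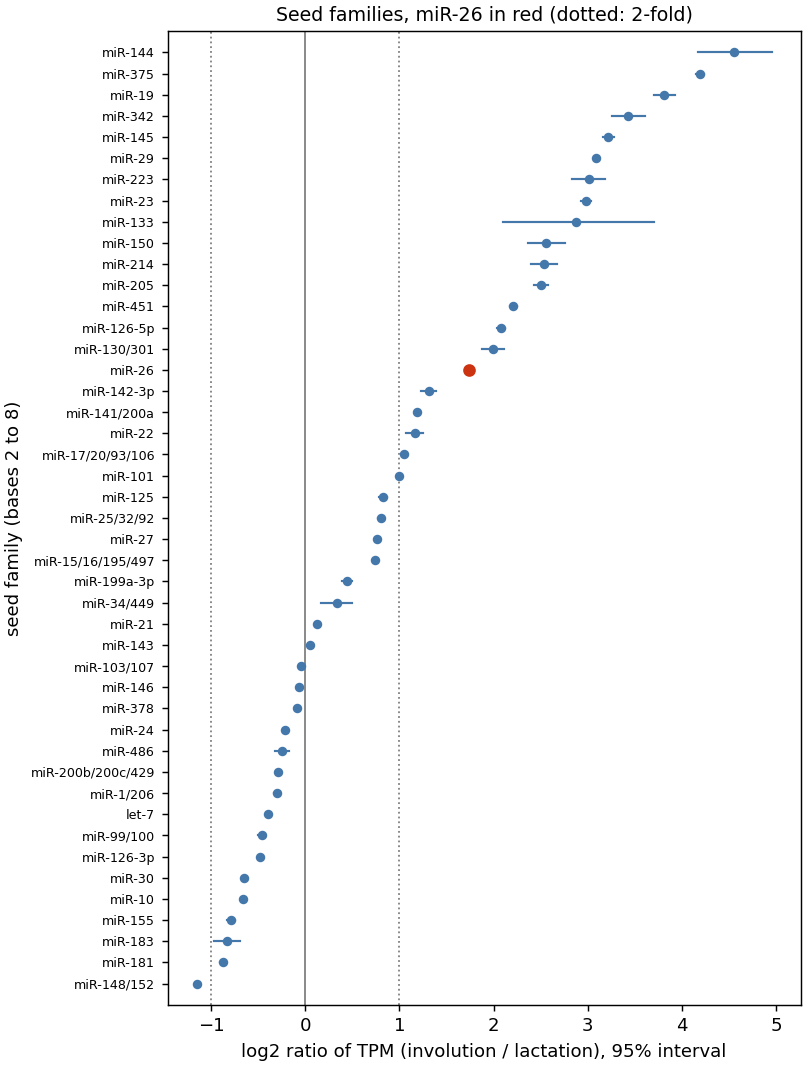
Log2 ratio of involution to lactation (x axis, from TPM) for 45 seed families (y axis, ordered by ratio), with points for the ratio and lines for the 95% counting interval of 1 library per stage. The miR-26 family, in red, lies to the right of the dotted 2-fold line at a log2 ratio of 1.74, and the median of all families is 0.81.

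The size of the rise depended on the scaling. The median log2 ratio of the 45 families was 0.81, and scaling by this median, which moved every log2 ratio by -0.81, gave 1.74 times for miR-26a-5p and 2.54 times for miR-26b-5p. The first was then short of 2-fold, and of the families 15 were higher and 13 lower. With edgeR's TMM factors over the same families, a shift of -0.19, the ratios were 2.66 and 3.88, and 17 families were higher and 3 lower. Both members stayed above 1 with each of the 4 such scalings. A scaling multiplies every ratio between the libraries by the same number, between 0.572 and 0.874 here, so it moves the levels and ratios of single forms given further on, while shares of a member's tags and the ratio of the paralogues do not depend on it.

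The families nearest to miR-26 in log2 ratio, of 34 others with at least 100 TPM in both libraries, were miR-126-5p at 2.08, miR-142-3p at 1.31 and miR-451 at 2.21. The first is made in endothelial cells, the second in leukocytes and the third in red cell precursors. With 2 libraries this likeness says no more than that these ratios are close. Other families known as markers of these cell types went both ways. The log2 ratios of miR-126-3p (-0.48), miR-155 (-0.78) and miR-486 (-0.24) were negative. Those of miR-150 (2.56), miR-223 (3.01), miR-342 (3.43) and miR-144 (4.55) were positive.

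miR-26a outnumbered its paralogue in both libraries, but by less in involution. There were 5.98 tags of miR-26a-5p per tag of miR-26b-5p in lactation (5.86 to 6.11) and 4.11 in involution (4.04 to 4.17). The share of miR-26b-5p in the pair was 14.3% (14.1 to 14.6%) and 19.6% (19.3 to 19.8%). The ratio of miR-26a to miR-26b was therefore 1.46 times higher in lactation (1.42 to 1.49). The libraries were closer when tags identical to the full sequences alone were counted, with ratios of 4.59 in lactation and 4.23 in involution.

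Some tags had the base of neither paralogue at position 11. Among tags of 20 to 22 nt with no more than 1 mismatch to the first 20 bases, 64 in lactation and 22 in involution had A or G there. These were 0.102% and 0.0290% when set against miR-26a-5p, and 0.603% and 0.118% when set against miR-26b-5p. The 22 nt sequence with the body of miR-26b and the 3′ end of miR-26a had 48 tags in lactation beside 4576 tags of the full miR-26b-5p, and 92 beside 10214 in involution, or 1.04% and 0.893% of the pair. The reverse, with the body of miR-26a and the 3′ end of miR-26b, was rarer. It had 6 tags beside 21021 of the full miR-26a-5p in lactation (0.0285%) and 18 beside 43191 in involution (0.0417%). Tags with 1 mismatch at any position made up 2.06% for miR-26a-5p in lactation and 1.83% in involution, and 2.37% and 2.12% for miR-26b-5p. The most frequent substitution in miR-26a-5p was G20A in lactation, with 0.551%, and A13C in involution, with 0.374%. In miR-26b-5p it was T11A in lactation, with 0.537%, and C12T in involution, with 0.435%. A tag with A at position 11 is 1 mismatch from either paralogue, so T11A cannot be assigned to miR-26b. The part of miscalled bases in the level of miR-26b was not tested.

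The clearest difference between the stages was where miR-26a ended. In lactation its commonest form lacked the last 2 bases, and in involution the full length was commonest. The forms that reached 1% of the tags of miR-26a by the first 18 bases, and did not carry added bases, are shown because they carry this difference.
20 nt form: ttcaagtaatccaggatagg
21 nt form: ttcaagtaatccaggataggc
22 nt form: ttcaagtaatccaggataggct
The 20 nt form had 27219 tags in lactation and 9787 in involution, 1510 TPM against 1325 TPM. The 21 nt form had 616 TPM in lactation and 2293 TPM in involution. The 22 nt form had 1166 TPM and 5848 TPM. In TPM the shortest of these forms was thus at 0.878 times its lactation level in involution (0.858 to 0.898), and the others were at 3.72 times (3.63 to 3.81) and 5.02 times (4.93 to 5.10). Scaled by the median of the families, the same ratios were 0.502, 2.13 and 2.87, so how far the 20 nt form was lower depended on the scaling.

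Grouped by the position of the last base, with tags that lack 5′ bases included, 44.4% of miR-26a-5p tags ended at position 20 in lactation (44.0 to 44.8%) and 12.8% in involution (12.6 to 13.1%). Ends at position 21 made up 18.1% and 22.2%, and ends at position 22 made up 34.3% and 56.8%. Ends at position 18 or 19 were rare in both libraries, at 0.106% and 0.765% in lactation and 0.111% and 0.657% in involution. In all, 63.4% of its tags were shortened in lactation (63.1 to 63.8%) and 35.8% in involution (35.5 to 36.1%), which is 27.6 points apart. Of the 5 end positions from 18 to 22, position 20 alone had a lower level in TPM in involution, and the level at each of the other 4 was at least 2.62 times that in lactation. Scaled by the median of the families, position 20 was at 0.503 times, and the other 4 were still above 1 (2.14 times at position 21 and 2.89 times at position 22).

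**Figure D2:**
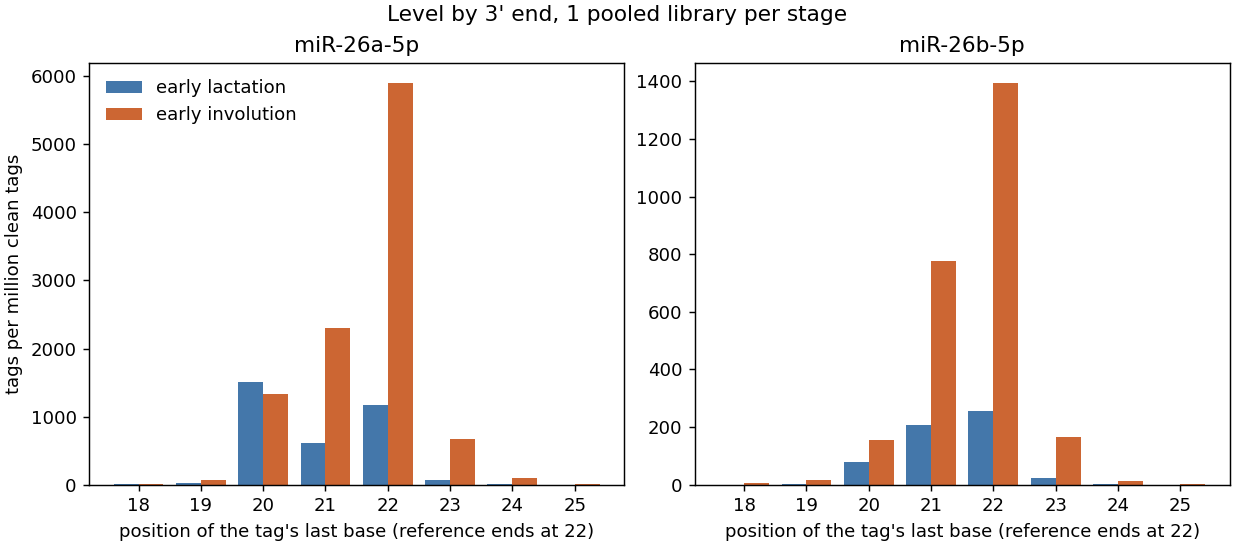
Level of miR-26a-5p (left) and miR-26b-5p (right) in TPM (y axis, from 0, a scale for each panel) by the position of the tag's last base (x axis), with a bar for each of the 2 pooled libraries. For miR-26a-5p the bar at position 20 is the tallest in lactation (1515 TPM) and the bar at position 22 in involution (5897 TPM); for miR-26b-5p position 22 is the tallest in both (254 and 1394 TPM).

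miR-26b moved the same way but by less. Its tags ended at position 20 in 13.9% in lactation (13.3 to 14.6%) and 6.17% in involution (5.83 to 6.52%), at position 21 in 36.1% and 30.7%, and at position 22 in 44.6% and 55.1%. The shortened share was 50.5% (49.5 to 51.4%) in the lactation library and 37.8% (37.1 to 38.5%) in the involution library, 12.7 points apart. In contrast to its paralogue, the form that ends at position 20 was itself higher in involution, at 79.4 TPM in lactation and 156 TPM in involution, or 1.97 times (1.82 to 2.13). Scaled by the median of the families this ratio was 1.13 (1.04 to 1.22). The full-length form rose from 254 to 1394 TPM. Its ratio of 5.48 (5.29 to 5.68) was a little above the 5.05 (4.96 to 5.13) of full-length miR-26a, and at position 21 the ratios were 3.78 and 3.73. The paralogues lay farther apart at position 20, and also at positions 18, 19, 23 and 24. At position 19 the ratio was 2.62 for miR-26a-5p and 6.34 for miR-26b-5p, and at position 24 it was 9.02 and 3.92.

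**Figure D3:**
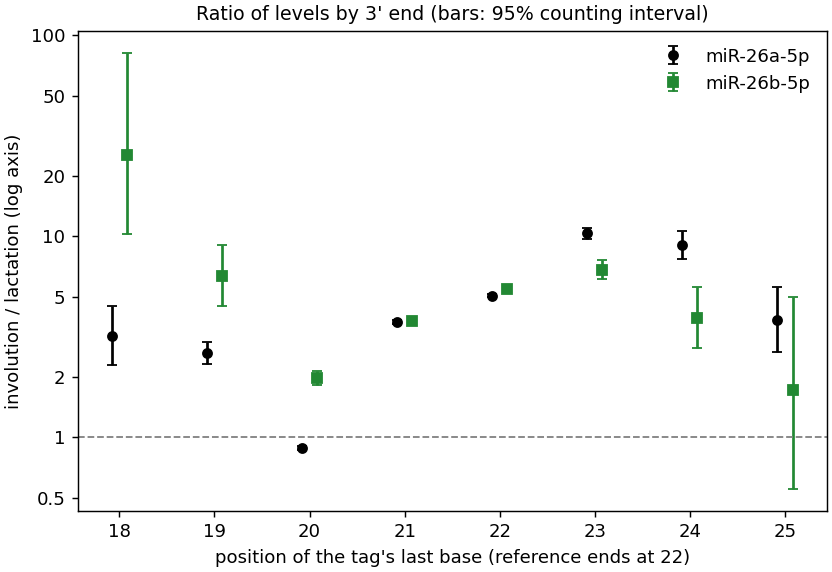
Ratio of involution to lactation in TPM (y axis, log scale) by the position of the tag's last base (x axis) for miR-26a-5p (circles) and miR-26b-5p (squares), with bars for the 95% counting interval and a dashed line at 1. From position 20 to 23 the ratio goes from 0.879 to 10.3 for miR-26a-5p and from 1.97 to 6.80 for miR-26b-5p; the squares at 18 and 25 rest on 5 and 10 lactation tags.

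Most other tag groups did not shorten less in involution. Over 274 groups by the first 18 bases with at least 1000 tags in both libraries, the share of tags of 20 nt or shorter was lower in involution in 104 and higher in 168, with a median difference of 0.45 points. For miR-26a-5p this share was 43.5% in lactation and 12.9% in involution. It fell by 30.6 points, the largest fall of the 274 groups. This first place depends on the cut of 1000 tags. A group of the miR-130 family, with fewer tags than the cut in lactation, fell further. Over the whole miR-130 family the share was 38% in lactation and 13.6% in involution. For miR-26b-5p it fell by 6.79 points, rank 21 from the lowest. Among the 70 groups that carry a seed of the 45 families the median difference was 0.85 points, and the next largest fall after miR-26a-5p was that of miR-126-5p, from 45.6% to 16.5%. The most abundant group, that of miR-143, went the other way, from 49.1% to 67.0%. Several of the 70 groups are 1-base variants of an abundant miRNA, and they are not independent of it. Over the libraries as a whole, tags of 20 nt made up 18.2% in lactation and 25.2% in involution. These totals include the miR-143 family, the most abundant of all (320557 and 331999 TPM), and its commonest tag has 20 nt. The difference without miR-143 was not tested, so the totals do not show a general gain in 20 nt tags.

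**Figure D4:**
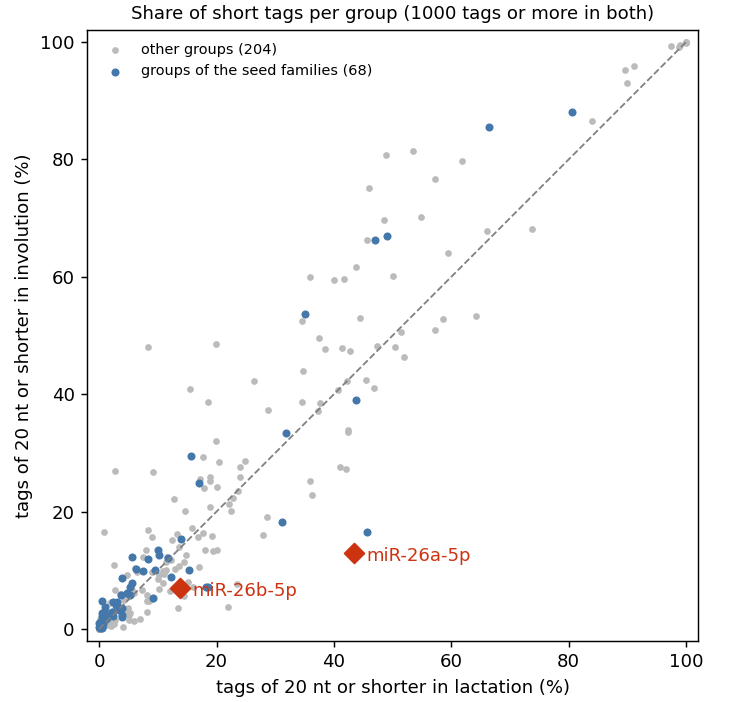
Percentage of tags of 20 nt or shorter in lactation (x axis) and in involution (y axis) for 274 groups of tags by first 18 bases with at least 1000 tags in both libraries, in grey, in blue for groups of the 45 seed families and as red diamonds for the members. miR-26a-5p lies farthest below the dashed line of equality, at 43.5% and 12.9%.

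Over 35 seed families with 1000 tags in both libraries, Spearman's rho between the difference in short-tag share and the log2 ratio was -0.25, and -0.21 without miR-26. These families share the same 2 libraries, and the values are given as a description.

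Longer forms of miR-26 were more frequent in involution. Tags of miR-26a-5p with 1 to 3 added bases amounted to 2.28% in the lactation library (2.17 to 2.40%) and 7.42% in the involution library (7.24 to 7.61%), and those of miR-26b-5p 4.93% (4.52 to 5.37%) and 7.10% (6.73 to 7.47%). No hairpin sequence was used here, so added bases that continue the precursor are not separated from bases added after processing. The main tailed forms of the full sequence are given with the added base in capitals, to show which bases were added.
miR-26a-5p with A: ttcaagtaatccaggataggctA
miR-26a-5p with T: ttcaagtaatccaggataggctT
miR-26b-5p with A: ttcaagtaattcaggataggttA
miR-26b-5p with T: ttcaagtaattcaggataggttT
A single A after the full length was carried by 0.573% of miR-26a-5p tags in lactation and 2.68% in involution, and by 0.729% and 3.63% of miR-26b-5p tags. A single T was carried by 1.15% and 3.44% of miR-26a-5p tags. For miR-26b-5p the share with a T was 2.10% in lactation (1.83 to 2.40%) and 2.34% in involution (2.13 to 2.57%), with intervals that overlap. A single G was less frequent on miR-26b-5p in involution, at 0.530% against 1.43% in lactation. The A-tailed forms were thus more frequent in involution for both members, and the T-tailed form for miR-26a alone beyond counting error.

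Added A was also more frequent on other miRNAs. In the 70 seed-family groups, the share of tags made of the most abundant tag of 21 nt or more plus an A had a median of 1.25% in lactation and 2.54% in involution and was higher in involution in 48. The same share for T had medians of 1.26% and 1.59% and was higher in 46. On this measure, over all tags with the first 18 bases, miR-26a-5p carried A in 0.544% and 2.46% and T in 1.10% and 3.14%.

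The rule leaves out tags that depart from the mature sequence near its end and then go on. Tags with the first 18 bases that the rule does not take made up 5.26% for miR-26a-5p in lactation and 8.47% in involution, and 8.42% and 8.21% for miR-26b-5p. The commonest carried an A in place of the last base. Whether such tags hold an added base or a changed one was not tested.
miR-26a-5p, 21 bases and A: ttcaagtaatccaggataggcA
miR-26b-5p, 21 bases and A: ttcaagtaattcaggataggtA
The first had 1693 tags in lactation and 3649 in involution, 93.9 TPM and 494 TPM, which was 5.26 times higher. The second had 344 and 680 tags, 19.1 TPM and 92.1 TPM, 4.83 times higher. With every base past the last match counted as an addition, 7.42% of miR-26a-5p tags carried one in lactation (7.22 to 7.63%) and 15.2% in involution. For miR-26b-5p the shares were 12.9% (12.3 to 13.6%) and 14.7% (14.2 to 15.2%). Counted so, additions that begin with A were on 5.51% and 10.96% of miR-26a-5p tags, and those that begin with T on 1.37% and 3.70%.

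The 5′ end, which sets the seed, was nearly uniform. Tags that start at the first base made up 99.7% of miR-26a-5p in lactation and 99.2% in involution, and 99.8% and 99.4% of miR-26b-5p. Tags lacking 1 or 2 bases made up 0.309% (0.267 to 0.356%) and 0.764% (0.703 to 0.828%) for miR-26a-5p. The same share for miR-26b-5p was 0.214% (0.134 to 0.324%) and 0.642% (0.533 to 0.767%). Both members therefore lacked 5′ bases more often in involution, at under 1% in either library.

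The opposite arm of the hairpin was nearly absent. Tags of the 3p arms were recognised by their start and by the stretch that pairs with bases 3 to 9 of the 5p arm. The most abundant tag of each is shown with its seed in capitals, as the arm names rest on these sequences and not on a goat catalogue.
miR-26a-1-3p: cCTATTCTcggttacttgcacg
miR-26a-2-3p: cCTATTCTtgattacttgtttc
miR-26b-3p: cTGTTCTCcattacttggctcg
The 3p arm of miR-26a had 19 tags in lactation (13 and 6 for the forms named 1 and 2) and 7 in involution (2 and 5). These were 0.0309% of the tags of both arms in lactation (0.0186 to 0.0482%) and 0.00912% in involution (0.00367 to 0.0188%). The 3p arm of miR-26b had 2 tags in lactation and 15 in involution, or 0.0194% (0.00236 to 0.0702%) and 0.0802% (0.0449 to 0.132%), with intervals that overlap. Its level was 0.111 TPM (0.0134 to 0.401) in lactation and 2.03 TPM (1.14 to 3.35) in involution. These intervals do not overlap, but they rest on few tags. Both 3p forms of miR-26a were seen, although the gene table lists 1 MIR26A gene.

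A pair of family lists gives the surroundings of miR-26. Of 12 families with members known to be repressed by the transcription factor MYC, miR-26 included, 5 were at least 2-fold higher in involution and none was lower, beside 44.4% higher among all 45. The others were miR-22 at 2.24 times, miR-23 at 7.88, miR-29 at 8.51 and miR-150 at 5.90. The median log2 ratio of the 11 without miR-26 was 0.74, against 0.79 for the 44 families without miR-26. Of 13 families studied for milk fat synthesis in goat mammary epithelial cells, 5 were higher and 1 was lower. Those higher beside miR-26 were miR-23, the miR-130 family at 3.98 times, miR-145 at 9.31 and that of miR-141 and miR-200a at 2.27, and the lower one was the miR-148 family at 0.451 times. The median without miR-26 was 0.35.

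Families known as markers of cell types are given beside these values, and their counts are to be read against the 44.4% of all 45 families that were higher. The 4 epithelial families (miR-141 with miR-200a, miR-200b with miR-200c, miR-205 and miR-375) summed to 21291 TPM in lactation and 26766 TPM in involution, and 3 of the 4 were higher. The family of miR-200b and miR-200c held most of this sum, at 18308 TPM in lactation and 15006 TPM in involution. It was the 1 family not higher, and miR-375 went from 287 to 5245 TPM. The 5 leukocyte families summed to 1411 and 1503 TPM with 4 of 5 higher, and the 3 erythroid families to 962 and 3245 TPM with 2 of 3 higher. The 5 stromal families summed to 325742 and 337195 TPM with 2 of 5 higher. The leukocyte and stromal sums were close in both libraries, but 1 family held most of each in lactation. For leukocytes this was miR-155, at 1217 TPM in lactation and 707 TPM in involution, while the other 4 leukocyte families were higher. For stroma it was miR-143, at 320557 and 331999 TPM. The pair of endothelial arms summed to 7317 and 6542 TPM with 1 of 2 higher, and the 2 muscle families to 1938 and 1581 TPM with 1 of 2 higher. The higher muscle family, miR-133, had only 1.05 TPM in lactation and 7.72 TPM in involution. No marker family was at 0 in either library, and the part of cell make-up in the values of miR-26 was not tested.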

How the data were processed

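The deposited files hold raw counts of each distinct clean tag. Per the deposited description, cleaning took out reads of low quality or with 5′ adaptor, cut the 3′ adaptor and dropped tags that were too short or polyA. No tool or version for these steps is given in the sources used here. Tags ran from 18 to 44 nt, although the deposited description names 30 nt as the upper limit, and longer tags were kept in the totals of 18031615 and 7385833. Samples were grouped by the titles in the labels. No table of mature sequences was used: each reference is the most abundant 22 nt tag that starts with T and the miR-26 seed, with C (miR-26a) or T (miR-26b) at position 11. The background set of named miRNAs and the lists, planned on RefSeq sequences, were therefore read as 45 seed families (tags of 18 to 26 nt) and as groups by first 18 bases. Intervals are 95%: exact Poisson for levels, Clopper-Pearson for shares, conditional Clopper-Pearson for ratios, and normal on the log scale for the ratio of paralogue ratios. PCR copies are not marked, so they cover counting error only. A floor of 3 tags, a 1-sided 95% limit for a count of 0, is 0.166 TPM in lactation and 0.406 in involution. The 2-sided Poisson interval for a count of 0 reaches higher, to 0.205 TPM in lactation. A group needed 10 TPM in a library, a ratio of at least 2 or at most 0.5 and an interval beyond 1 to be counted. The 45 families were called by the ratio and the interval alone, with no minimum level. Forms named singly reach 1% of a member in a library or are its 3p arms; families named are the 3 nearest in ratio, the neighbours in rank and the list members past 2-fold. The miR-143 group, miR-126-5p as the next largest fall, the miR-130 group, miR-126-3p, miR-155 and miR-486 were named after their values were seen. Members and lists were chosen with earlier results of these data known. Alternatives covered scaling, assignment, tag length, depth and the filter on level. The ratio intervals and calls were tested on simulated counts that held counting error alone. They had no spread between goats and no PCR copies, so the test says nothing about these. Python 3.11.15, numpy 2.4.6, scipy 1.17.1, matplotlib 3.10.9, R 4.3.3 and edgeR 4.0.16 were used.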

Additional observations from a re-analysis of the deposited data

Results flagged for a closer look

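Several kinds of tag outside the rule held miR-26 in numbers above the floor of 3 tags. Tags with 1 base before the start of miR-26a-5p numbered 844 in involution and 164 in lactation, or 1.10% and 0.267% of the member's tags, and for miR-26b-5p 228 and 14. An A stood before miR-26a-5p in 396 of them in involution and 3 in lactation, and a C in 388 and 161. Over the 70 seed-family groups, the median share of tags with 1 base before the start was 0.0740% in lactation and 0.666% in involution, higher in involution in 61. Tags with 2 to 7 bases before the start numbered 339 in involution and 3 in lactation for miR-26a-5p, and 88 and 1 for miR-26b-5p.

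Tags in which miR-26a-5p followed 15 or more other bases numbered 74 in lactation and 12 in involution, 4.10 and 1.62 TPM, and those with miR-26b-5p 8 and 2. The commonest, with 18 tags, is shown with miR-26a-5p in capitals, since it holds a full second small RNA of 22 bases in front.
Joined tag: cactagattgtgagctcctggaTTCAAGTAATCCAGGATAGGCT
Tags of 36 nt or longer that begin with a member numbered 49 in lactation and 8 in involution.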

How the results depend on the processing

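Of 45 comparisons of a value with an alternative, 20 stayed within the counting interval of the main value, 4 were shares of groups, which have no such interval, within 1.5 times of it, 21 moved further and 0 reversed direction. The shares of groups, being without a direction, could not have been counted as reversed. With identical tags alone the ratio was 5.02 for miR-26a-5p and 5.45 for miR-26b-5p, and the ratio of miR-26a to miR-26b in involution over that in lactation was 0.921 in place of 0.687. It was 0.712 both with the first 18 bases and with 1 mismatch allowed, which gave 3.14 and 3.15 for miR-26a-5p. Scaled to the tags of the seed families alone the members' ratios were 3.29 and 4.79; with TMM over the families 2.66 and 3.88; with median-of-ratios over them 1.74 and 2.54; and over groups by first 18 bases 2.54 and 3.70 with TMM and 2.59 and 3.77 with median-of-ratios. These scalings were chosen after seeing the data, in place of scalings over RefSeq miRNAs, which were not run for want of their sequences. With the first 18 bases the tailed share of miR-26a-5p differed by 7.82 points in place of 5.14, and the shortened share of miR-26b-5p by -11.4 in place of -12.7. With no minimum level, 2.24% of 317291 groups were higher and 0.474% lower. Groups with only a few tags were counted in this total but were never called, which by itself lowers both shares. The cause of the other shifts was not tested. No paired analysis was possible because each stage has 1 library. The ratios at positions 18 and 25 of miR-26b-5p and the 3p arms are limited by depth.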
